A study of Mus musculus with 2 samples.

Results

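The genes followed here mark position along the gut: Gata4, Gata6, Onecut2, Pdx1, Cdx1, Cdx2, Fabp6, Slc10a2 and Hnf4a. They were listed by name, with no threshold on a measured value but with earlier results of these data known, and all 9 of 9 were found among the 31053 genes of the deposited matrix. The matrix comes from mouse small intestinal organoids, which are balls of gut epithelium grown in culture from intestinal cells. The labels list 1 untreated control sample and 1 sample treated with melatonin, each a pool of cells from 3 independent organoid lines taken on culture day 3, and the gut segment of origin is given no further than small intestine. Both samples hold the same matrix, byte for byte in 3 of 3 kinds of file, with barcodes that end in 1 (set 1) or 2 (set 2). No label ties a suffix to a treatment, so the matrix was handled as 1 sample, melatonin was not compared with control, and set 2 over set 1 is an arbitrary direction.

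The gut is patterned along its length by transcription factors. GATA4 is made in the duodenum and jejunum and not in the distal ileum, and in mice that lose it the jejunum takes up ileal genes, those for bile acid uptake among them. GATA6 is made along the whole small intestine, PDX1 and ONECUT2 are strongest in the duodenum, the caudal factors CDX1 and CDX2 hold intestinal against gastric identity, and HNF4A drives enterocyte genes in every segment. The ileum reclaims bile acids with the apical transporter SLC10A2 and the cytosolic carrier FABP6, and FXR, the bile acid receptor encoded by Nr1h4, switches on Fabp6.

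The promoters of these ileal genes are shown because their products work in the same cells of the ileum while here Slc10a2 was counted in enterocyte-gated cells and Fabp6 was not. Both windows are the 250 bases before the RefSeq start in build GRCm38.p6, and both genes lie on the minus strand, Fabp6 at chr11:43601563-43601812 and Slc10a2 at chr8:5105288-5105537. Capitals mark any match on either strand to one of a few motifs. For FXR this was the inverted repeat it binds, AGGTNA followed by any base and by the reverse complement of the same letters. For the CDX factors it was CATAAA and for the GATA factors AGATAA. For HNF4 it was CAAAGTC and for HNF1 it was GTTAAT, each a stretch of the longer sequence these factors bind. No match overlapped another. These motifs were picked after the Fabp6 window had been seen.
Fabp6: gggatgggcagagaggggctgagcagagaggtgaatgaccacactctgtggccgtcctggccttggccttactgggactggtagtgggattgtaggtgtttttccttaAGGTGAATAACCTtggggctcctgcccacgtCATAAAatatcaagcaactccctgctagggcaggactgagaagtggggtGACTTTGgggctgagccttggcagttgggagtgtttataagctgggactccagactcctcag
Slc10a2: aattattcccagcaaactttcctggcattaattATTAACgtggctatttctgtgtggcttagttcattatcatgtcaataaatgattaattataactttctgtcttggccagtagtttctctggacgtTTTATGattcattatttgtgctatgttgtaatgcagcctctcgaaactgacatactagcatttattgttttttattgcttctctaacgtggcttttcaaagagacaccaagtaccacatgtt
The inverted repeat in Fabp6 spans -142 to -130, counted back from the start, and its letters occur in 6 of 32851 promoter windows of this length (0.0183%). Matches to the shorter motifs are common: CATAAA is in 10.8% of the windows, AGATAA in 9.99%, GTTAAT in 6.43% and CAAAGTC in 3.84%. Neither window holds AGATAA, which says nothing about GATA4 binding elsewhere. Of the members, 5 had a promoter entry; AGATAA was found at -52 in 1 of the 2 windows of Hnf4a, the reverse complement of GTTAAT at -81 and -74 in the other, GTTAAT at -30 in that of Cdx2, and none of the motifs in that of Pdx1. Matches describe letters, not sites in use.

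Cells were barcodes with at least 500 genes, at least 1000 unique molecular identifiers (UMIs) and at most 20% mitochondrial UMIs: 2300 in set 1 and 1766 in set 2, with medians of 29872 and 28759 UMIs. They were sorted into classes by summed marker UMIs. Values come as pairs, set 1 first. The classes were 455 and 298 stem-gated, 931 and 519 proliferating-gated, 82 and 154 enterocyte-gated and 269 and 269 enteroendocrine-gated cells, besides 468 and 450 cells low in all markers, whose median depths were 3388.5 and 26799 UMIs. Goblet or Paneth-gated cells (33 and 16), revival-like cells (12 and 17), tuft-gated cells (9 and 2) and cells that passed several gates (41 and 41) were too few to compare. Markers of other cell types were low: in CPM, the UMIs of a gene scaled to 1000000 in all, 7 immune markers summed to 1.36 and 0.822, 7 mesenchymal markers to 0.211 and 0.157 and 5 endothelial markers to 4.93 and 3.23, with 1, 3 and 2 of them at 0 UMIs. Intervals below are 95% Poisson intervals over summed UMIs and cover counting error only; with 1 library per set there is no replicate and no test. The 3′ counts are not per length, so the levels of different genes are not ranked. The level of 10 CPM used below only counts which genes of a list were present, and such counts can shift with how well each gene is captured.

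By the textbook positions of these 9 genes the organoids resembled proximal small intestine only in part. Enterocyte-gated cells also held the ileal gene Slc10a2, and less of the proximal factor gene Pdx1 than stem- and proliferating-gated cells. Of wider lists read below, 21 of 23 proximal genes reached 10 CPM there in each set, beside 10 and 8 of 20 distal genes. In enteroendocrine-gated cells the distal hormone gene Gcg stood at 2805 and 8268 CPM, and the proximal Cck at 22842 and 54471 CPM. Over all kept cells Gata4 stood at 40.4 and 35.4 CPM, Gata6 at 100.9 and 80.002 CPM, Onecut2 at 153 and 145 CPM and Pdx1 at 17.6 and 16.5 CPM. The intestinal factors stood at 89.4 and 81.8 CPM (Cdx1), 87.5 and 69.6 CPM (Cdx2) and 82.5 and 86.2 CPM (Hnf4a). The ileal carrier gene Fabp6 had 0 and 4 UMIs: the 0 allows at most 0.0487 CPM, and the 4 make 0.0783 CPM (0.0213 to 0.200). The ileal transporter gene Slc10a2 stood at 1.30 CPM (1.03 to 1.62) and 3.13 CPM (2.66 to 3.65). Over all cells 7 of 9 members reached 10 CPM in each set, and both exceptions were ileal genes. Of the 20419 genes with a UMI, 35.6% did so in set 1 and 36.5% in set 2. This count does not tell segments apart, since Gata6, Cdx1, Cdx2 and Hnf4a are not tied to a single segment. Enterocyte-gated cells, which held 51.3% of the Slc10a2 UMIs, were 5.80% of kept cells. In that class, which should hold the ileal transporter, Slc10a2 passed 10 CPM in both sets. The members under 10 CPM there were Fabp6 in both sets and the proximal factor gene Pdx1 in set 1 (7.91 CPM). No tissue of known segment is in the series, so the resemblance rests on textbook positions. FXR switches on Fabp6, and whether FXR was active here was not tested, so the low Fabp6 count alone does not place the segment.

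**Figure D1:**
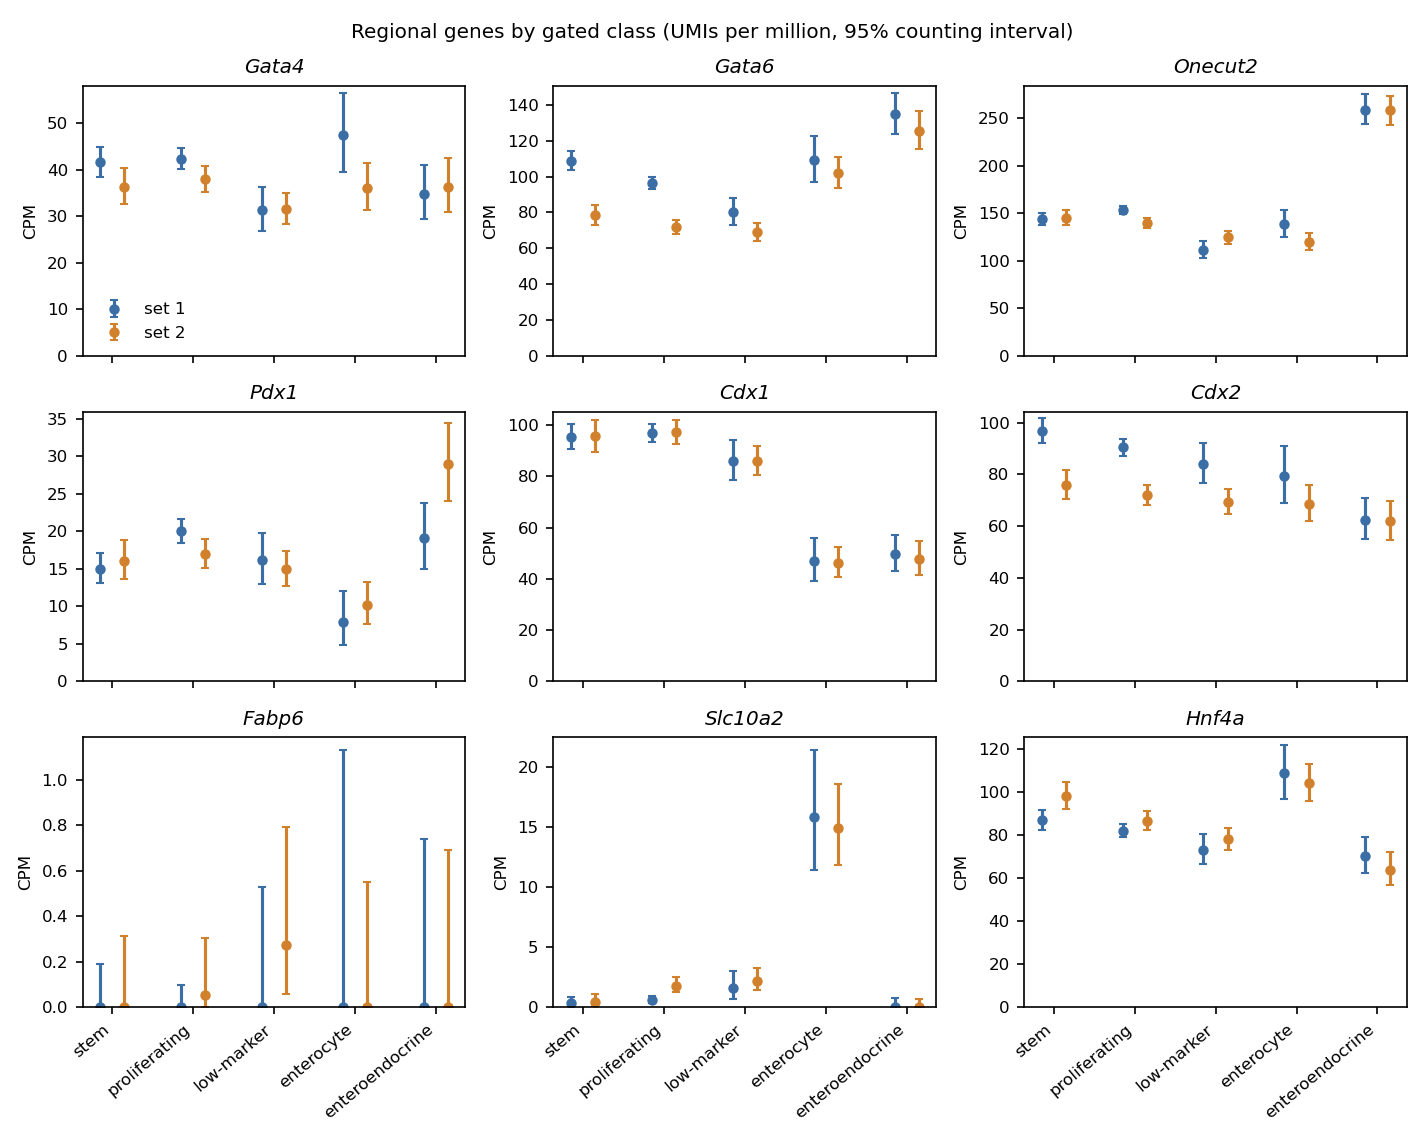
Level in CPM (linear axis from 0) of the 9 genes in 5 gated classes; points are single barcode sets (blue set 1, orange set 2), bars are 95% Poisson counting intervals, and a gene at 0 UMIs has a bar up to the level that 3 counts would give. Onecut2 is highest in enteroendocrine-gated cells at 259 and 258 CPM, Cdx1 drops to 46.2 to 49.7 CPM in both differentiated classes, and Slc10a2 reaches 15.8 and 14.9 CPM in enterocyte-gated cells.

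Gata4 was counted in each class. It stood at 41.7 and 36.4 CPM in stem-gated, 42.3 and 37.9 CPM in proliferating-gated, 47.5 and 36.1 CPM in enterocyte-gated and 34.9 and 36.3 CPM in enteroendocrine-gated cells, and at 31.3 and 31.5 CPM in cells low in all markers. The counting intervals of neighbours in the order of levels overlapped, while those of proliferating-gated cells and of cells low in all markers lay apart in each set. Free RNA can level a gene between cell types, and its part in these levels was not tested. The hormone gene Cck stood at 22842 and 54471 CPM in enteroendocrine-gated cells and at 30.9 and 51.0 CPM in enterocyte-gated cells.

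Gata6 had its highest level in enteroendocrine-gated cells, 135 CPM (124 to 146) and 126 CPM (115 to 137), apart from the next class in each set. Many genes were higher in this class: the median log2 ratio of all genes over stem- and proliferating-gated cells was 0.43 and 0.33, and that of Gata6 was 0.42 and 0.76. Enterocyte-gated cells followed at 109 and 102 CPM, and cells low in all markers were lowest at 80.4 and 69.1 CPM. Stem-gated cells lay next to the enterocyte-gated cells in set 1 at 109 CPM, and below them in set 2 at 78.6 CPM.

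Onecut2 was higher in enteroendocrine-gated cells, at 259 CPM (244 to 275) and 258 CPM (243 to 274), than in each of the other 4 classes, which lay between 111 and 154 CPM with no interval reaching those values. Against stem- and proliferating-gated cells together (150 and 142 CPM) the log2 ratio was 0.78 in set 1 and 0.86 in set 2. It was the 1 member that was at least 1.5-fold higher in both sets in this comparison, where 37.3% of 13218 genes were. By the same rule 2 members were lower, where 15.4% of genes were: Cdx1 and Slc10a2. The call of Slc10a2 rests on the pseudocount, since its 0 UMIs in enteroendocrine-gated cells allow up to 0.741 and 0.693 CPM against 0.531 and 1.33 CPM in the stem and proliferating classes, so that a lower level is not shown in set 1.

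Pdx1 fell in enterocyte-gated cells, and in the enteroendocrine class taken whole it did not. Its level was 18.3 and 16.6 CPM in stem- and proliferating-gated cells together, 7.91 and 10.1 CPM in enterocyte-gated cells, and 19.0 CPM (15.0 to 23.8) and 28.9 CPM (24.1 to 34.4) in enteroendocrine-gated cells. Over the stem and proliferating classes the log2 ratio of enteroendocrine-gated cells was 0.05 and 0.76, beside medians of 0.43 and 0.33 over all genes. That of enterocyte-gated cells was -1.12 in set 1 and -0.66 in set 2. In the enterocyte-gated cells these levels rest on 21 and 55 UMIs. The gene Plut, which overlaps Pdx1 on the other strand, went the opposite way, from 4.75 and 5.23 CPM in stem-gated to 36.5 CPM (29.6 to 44.6) and 23.4 CPM (19.5 to 27.8) in enterocyte-gated cells. Whether reads were assigned by strand is not given in the sources used here, so the part of this overlap in the Pdx1 values was not tested.

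Enteroendocrine-gated cells were then split by hormone or progenitor genes, a split chosen after the data had been seen. The subsets overlap, since all 32 Gcg-high cells were also among the 105 Cck-high cells, and 35 of the 118 Neurog3-high cells were also among the 105 Tph1-high cells, while no cell was both Tph1-high and Cck-high. Tph1-high cells, with at least 20 UMIs per 10000 of the enzyme gene that starts serotonin synthesis, numbered 39 and 66 and held Onecut2 at 295 CPM (252 to 343) and 349 CPM (313 to 388). Cck-high cells, with at least 200 UMIs per 10000 of the cholecystokinin gene, numbered 28 and 77 and held Onecut2 at 96.4 CPM (72.2 to 126) and 131 CPM (113 to 151). By the gate, Cck takes at least 200 of each 10000 UMIs in Cck-high cells, which lowers the CPM of other genes there. The size of this was not tested. In CPM, Onecut2 was above the level of stem-gated cells (144 and 145 CPM) in Tph1-high cells. In Cck-high cells Onecut2 was below that level in set 1 and within counting error of it in set 2.

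Its paralog Onecut3 had the reverse pattern. It had no UMI in Tph1-high cells of either set, limits of 5.17 and 3.098 CPM, and stood at 167 CPM (135 to 205) and 154 CPM (134 to 175) in the Cck-high cells. Ghrl-high cells of both sets together, 19 in all and 16 of them Cck-high, held Onecut3 at 160 CPM (122 to 205; 276 CPM in 6 cells and 108 CPM in 13 cells by set, with all 60 UMIs in 7 cells) and Onecut2 at 120 CPM (87.3 to 160). Enterocyte-gated cells had 0 Onecut3 UMIs in both sets. Onecut1, also of the family, had 0 UMIs in enteroendocrine-gated cells.

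Pdx1 was lower in Tph1-high than in Cck-high cells. It stood at 38.2 CPM (23.7 to 58.4) and 47.9 CPM (37.3 to 60.7) in Cck-high cells and at 5.17 CPM (1.07 to 15.1) and 10.3 CPM (4.95 to 19.0) in Tph1-high cells. In the 28 Gip-high cells of both sets, cells of the incretin hormone made in the proximal gut, Pdx1 reached 73.9 CPM (51.5 to 103; 43.9 CPM and 89.2 CPM by set), and in the 510 other enteroendocrine-gated cells 21.1 CPM (18.1 to 24.6). The 32 Gcg-high cells held it at 53.2 CPM (36.8 to 74.3). Neurog3-high progenitors had 11.3 and 22.0 CPM of Pdx1 and Onecut2 at 237 and 253 CPM. These are single pools of few cells: Gip-high cells numbered 9 and 19, and 9 of the 28 were also Cck-high.

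**Figure D2:**
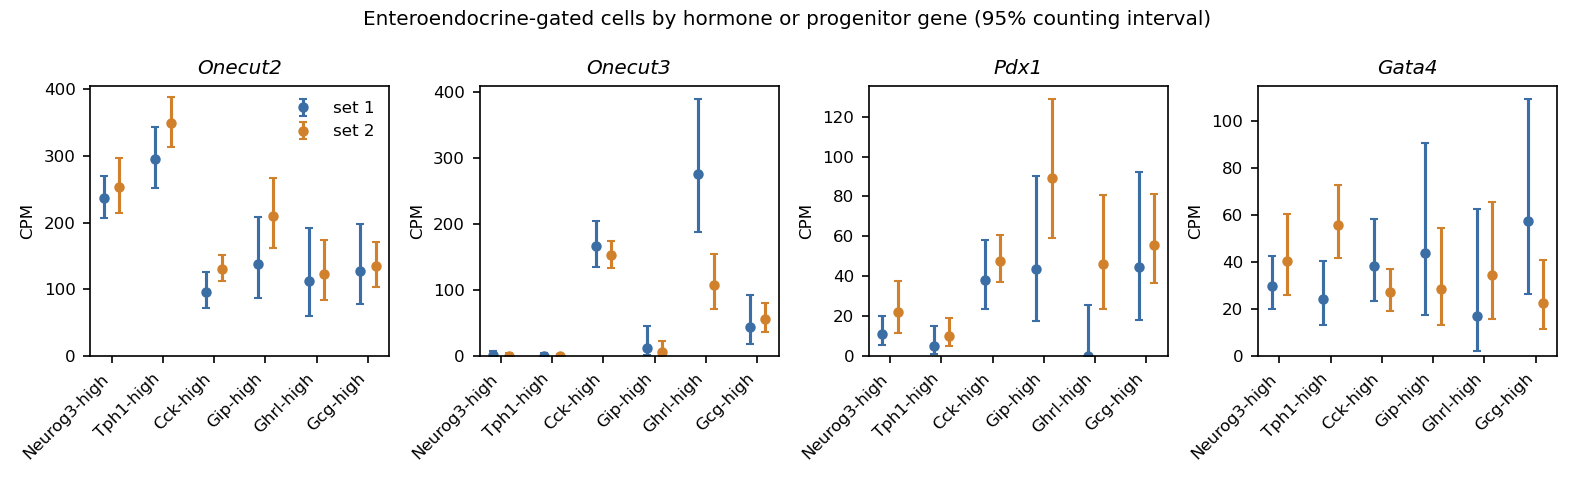
Enteroendocrine-gated cells with a high level of the gene named on the x axis; the y axis gives CPM of Onecut2, Onecut3, Pdx1 or Gata4 (linear, from 0), points are barcode sets and bars 95% Poisson counting intervals, with 0 UMIs drawn up to the level of 3 counts. Onecut2 is highest and Onecut3 at 0 UMIs in Tph1-high cells, whereas Cck-high cells hold Onecut3 at 167 and 154 CPM.

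The caudal factor gene Cdx1 was lower in both differentiated classes. It stood at 95.5 and 95.6 CPM in stem-gated and 97.0 and 97.1 CPM in proliferating-gated cells, against 47.1 CPM (39.2 to 56.1) and 46.2 CPM (40.7 to 52.3) in enterocyte-gated and 49.7 and 47.8 CPM in enteroendocrine-gated cells. The log2 ratio of enterocyte-gated over stem- and proliferating-gated cells was -1.02 in set 1 and -1.05 in set 2, and no interval of the differentiated classes reached those of the others. Cdx2 was not past 1.5-fold against the stem and proliferating classes in both sets, at 96.9 and 75.9 CPM in stem-gated, 79.5 and 68.7 CPM in enterocyte-gated and 62.5 and 61.9 CPM in enteroendocrine-gated cells. In the latter its log2 ratio was -0.56 and -0.24, with intervals apart from those of the reference in each set. The difference between Cdx1 and Cdx2 was not tested. Cdx4, the remaining caudal gene, had 0 UMIs over all kept cells.

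Hnf4a stood at 109 CPM (96.7 to 122) and 104 CPM (95.7 to 113) in enterocyte-gated cells, the top of its order, though in set 2 its interval overlapped that of stem-gated cells (92.2 to 105). It stood at 70.4 and 64.0 CPM in enteroendocrine-gated cells, the bottom, where in set 1 the interval overlapped that of cells low in all markers. It did not reach 1.5-fold between these classes and the stem and proliferating cells (83.8 and 90.7 CPM). Its relative Hnf4g, which acts with it on enterocyte genes, rose from 19.7 and 15.5 CPM to 69.7 and 69.6 CPM in enterocyte-gated cells.

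Across the 8 members with enough UMIs, enterocyte-gated cells were at least 1.5-fold higher than stem- and proliferating-gated cells in both sets for 1 (Slc10a2), where 15.9% of 12557 genes were, and lower for 2 (Pdx1 and Cdx1), where 26.5% were. Of the 20 other gut transcription factors listed, 15 had enough UMIs, and 6 were higher and 3 lower against those same shares of all genes. The higher ones included Creb3l3, a lipid regulator, at 252 and 259 CPM against 9.67 and 10.7 CPM, and Maf at 42.9 and 53.8 CPM against 5.399 and 7.94 CPM. The lower ones were Sox9, Foxa2 and Foxa3. Enteroendocrine-gated cells were higher for 6 of 16, a share close to the 37.3% of all genes in that comparison, among them Foxa1 at 104 and 101 CPM and Foxa2 at 80.6 and 71.2 CPM, and lower for 0, where 15.4% of all genes were lower.

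The steps of differentiation were ordered by the enterocyte markers per cell, in bins chosen after the data had been seen, with 36 to 813 cells each. None of the 9 members is among those markers. From cells with under 5 marker UMIs per 10000 to cells with at least 80, Cdx1 went from 91.7 and 86.9 CPM to 40.02 and 39.99 CPM. Most of that drop lay above 20 marker UMIs per 10000, since the bin from 20 to 40 still held 92.4 and 80.2 CPM. Pdx1 went from 21.4 and 16.6 CPM to 5.72 and 10.1 CPM. Hnf4a went from 85.2 and 79.9 CPM to 113 and 105 CPM, with intervals that touched in set 1 and lay apart in set 2, and it was at 75.1 CPM in the bin from 20 to 40 of set 1. Gata4 was at 40.5 and 31.8 CPM in the first bin and 50.8 and 36.6 CPM in the last, with overlapping intervals in each set.

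**Figure D3:**
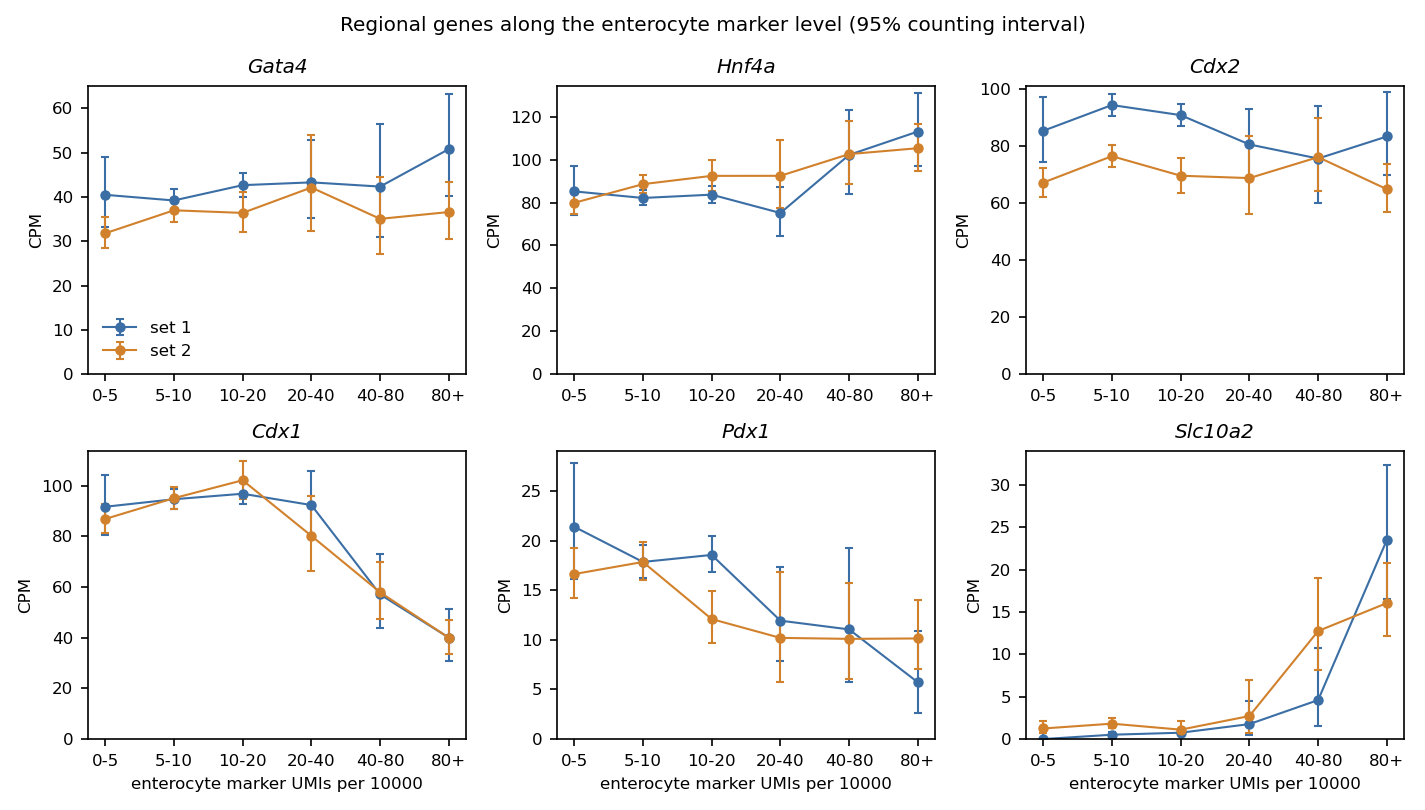
CPM (linear axis from 0) of 6 members against the enterocyte marker UMIs per 10000 of each cell, in 6 bins, for cells of the stem, proliferating, low-marker and enterocyte classes; points are barcode sets and bars 95% Poisson counting intervals. Cdx1 reaches 40.02 and 39.99 CPM in the last bin, while Slc10a2 climbs to 23.5 and 16.1 CPM there.

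Slc10a2 appeared with enterocyte maturity. In the first bin it stood at 0 and 1.25 CPM, and in the last at 23.5 and 16.1 CPM. The bin from 40 to 80 held it at 4.60 CPM (1.49 to 10.7, on 5 UMIs) in set 1. In set 2 that bin held 12.8 CPM (8.17 to 19.0). Enterocyte-gated cells held it at 15.8 CPM (11.4 to 21.4) and 14.9 CPM (11.9 to 18.6), stem-gated cells at 0.380 and 0.418 CPM. These cells were 5.80% of all kept cells and held 123 of the 240 Slc10a2 UMIs (51.3%). A UMI was found in 24 of the 82 enterocyte-gated cells (29.3%, Clopper-Pearson 19.7% to 40.4%) and 45 of the 154 (29.2%, 22.2% to 37.1%), at median depths of 34860 and 34346 UMIs. Enteroendocrine cells, which should lack the transporter, had none in 538 cells, which allows a share of cells with a UMI of up to 0.558%, at a median depth of 14326 UMIs. At that lower depth, cells with a low level of the gene can lack a UMI. Thinned to 2000 UMIs per cell, the enterocyte-gated shares were 2.73% and 2.74%.

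Fabp6 did not appear with it. Of its 4 UMIs, 3 were in cells of set 2 low in all markers and 1 in a proliferating-gated cell, and 0 of 236 enterocyte-gated cells had one, which allows a share of cells with a UMI of up to 1.27% and a summed level of up to 0.371 CPM. Nr1h4 stood at 35.0 and 47.9 CPM in enterocyte-gated cells, against 8.18 and 7.33 CPM in stem- and proliferating-gated cells. Fgf15, an ileal gene that FXR also switches on, had 0 and 3 UMIs in the enterocyte-gated cells, the 3 making 0.553 CPM (0.114 to 1.62). Over all kept cells Fgf15 had 51 and 54 UMIs, of which 51.0% and 42.6% came from 3 cells.

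Enterocyte-gated cells were then split by whether a Slc10a2 UMI was counted; at 123 UMIs over 236 cells, cells without one can still express the gene. In the 69 enterocyte-gated cells with a Slc10a2 UMI, Gata4 stood at 42.1 CPM (34.7 to 50.6), and 51 of them had a Gata4 UMI. In the 167 without one it stood at 38.7 CPM (33.6 to 44.3). By set, Gata4 was at 48.4 CPM with and 47.0 CPM without a Slc10a2 UMI in set 1, and at 39.0 and 34.7 CPM in set 2. The proximal lactase gene Lct was at 179 CPM with and 127 CPM without in set 1, and at 114 and 117 CPM in set 2. The distal gene Clec2h was at 226 and 137 CPM in set 1, and at 137 and 133 CPM in set 2, so the higher levels of Lct and Clec2h beside Slc10a2 lay in set 1. Cells with a UMI were somewhat deeper, with medians of 36448 against 33412 UMIs.

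Slc10a2 was also the 1 of 8 members tested that passed 1.5-fold between the sets over all cells (log2 ratio 0.85), where 3.86% of 15474 genes did. With a pseudocount of 10 CPM its log2 ratio was 0.22 and it did not pass. The share of enterocyte-gated cells was 3.57% and 8.72%, and inside that class the log2 ratio of Slc10a2 was -0.08. Among proliferating-gated cells it was 0.80, on 19 and 33 UMIs, and it was the 1 member of 8 past 1.5-fold there (4.29% of genes). In the other classes 0 members passed, where 6.85% of genes did in stem-gated, 8.8% in low-marker, 12.6% in enterocyte-gated and 12.2% in enteroendocrine-gated cells. Pdx1 came close in enteroendocrine-gated cells, at 0.578 on 77 and 125 UMIs, and Slc10a2, with 0 UMIs, was not tested there. Over all cells the other 7 had ratios from -0.33 (Gata6 and Cdx2) to 0.06 (Hnf4a), beside a median of 0.03 over all genes. Whether any of this belongs to melatonin cannot be told apart from other differences between the sets.

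The wider segment lists were read in the enterocyte-gated cells at 10 CPM, a level that 32.2% of 20419 genes reached in set 1 and 32% in set 2. Of 23 proximal small intestinal genes, 21 reached it in each set. The fatty acid carrier gene Fabp1 stood at 22981 and 19872 CPM, Gsta1 at 7049 and 7617 CPM, the vitamin A carrier gene Rbp2 at 5093 and 4832 CPM, the calcium carrier gene S100g at 4164 and 6402 CPM, the apolipoprotein gene Apoa4 at 3436 and 3577 CPM and Gstm3 at 1383 and 1889 CPM. The 2 exceptions, the calcium channel gene Trpv6 and Gkn3, had 0 UMIs, limits of 1.13 and 0.553 CPM. Gkn3 was counted in stem- and proliferating-gated cells, at 4.63 and 2.30 CPM.

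Of 20 distal small intestinal genes, 10 reached 10 CPM in set 1 and 8 in set 2. They included Abcb1a, a drug efflux pump gene, at 273 and 355 CPM, Clec2h at 167 and 134 CPM, the dipeptidase gene Dpep1 at 187 and 96.0 CPM, the amino acid transporter gene Slc7a9 at 137 and 110 CPM, Amn at 70.8 and 82.7 CPM and Ceacam20 at 62.9 and 59.1 CPM. Slc51b, a subunit of the basolateral bile acid exporter, stood at 53.1 and 32.6 CPM and its partner Slc51a at 18.1 and 9.21 CPM. Plb1 had 0 UMIs in each set, and Fgf15 and 3 others (Tmigd1, Fam151a and Bex1) had 0 in 1 set. In enteroendocrine-gated cells Bex1 stood at 96.6 and 85.1 CPM and Plb1 at 4.45 and 10.2 CPM. At least 1.5-fold higher than in stem- and proliferating-gated cells in both sets were 21 of the 22 proximal genes with enough UMIs and 12 of 15 distal ones, where 15.9% of all genes were. The median log2 ratios were 4.28 and 3.66 for the proximal list and 2.92 and 2.32 for the distal one, beside -0.19 and -0.24 over all genes. Genes of both lists rose in a class gated on enterocyte markers, so this comparison cannot tell segment from enterocyte maturity.

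**Figure D4:**
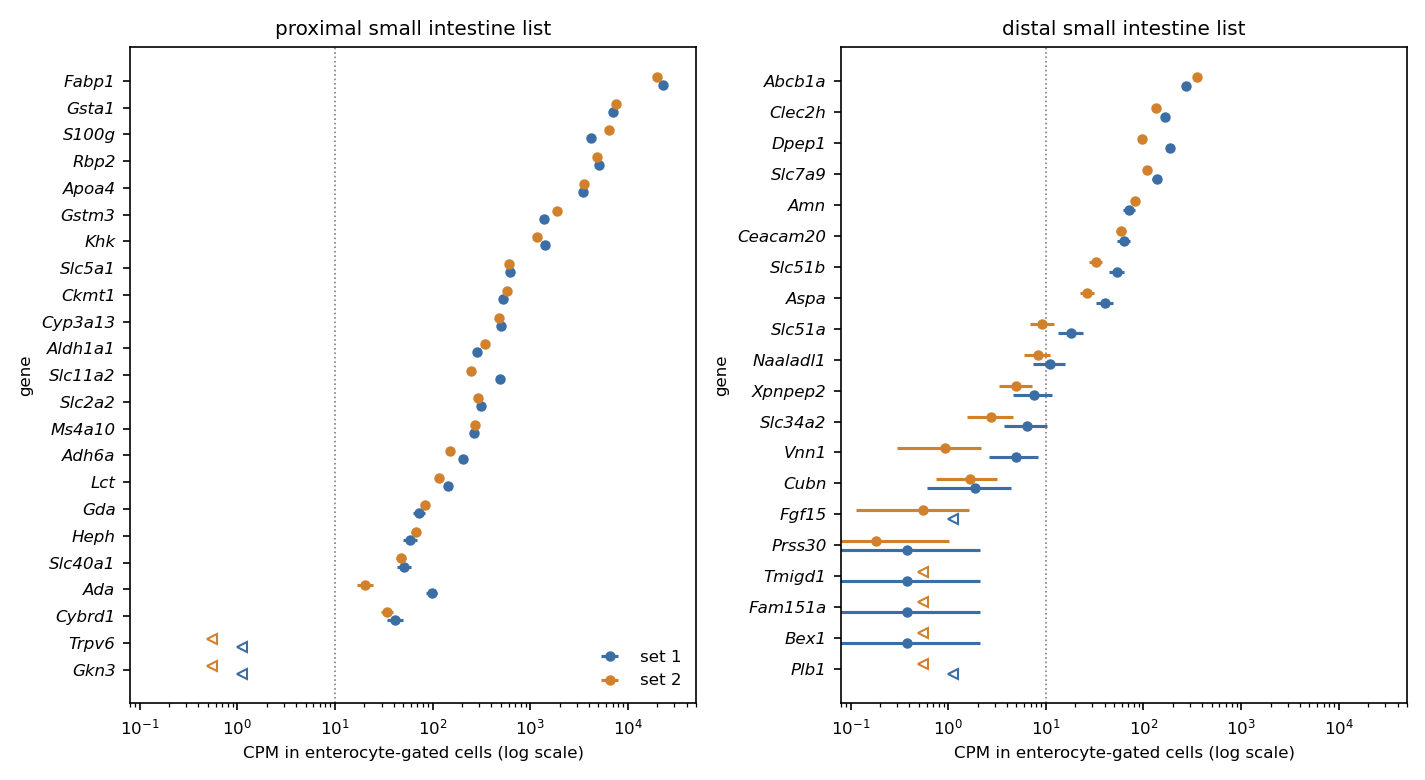
CPM in enterocyte-gated cells (log axis) of the proximal and the distal small intestinal lists; points are barcode sets, bars 95% Poisson counting intervals cut at the left edge, open triangles the level that 3 counts would give for a gene at 0 UMIs, and the dotted line is 10 CPM. In each set 21 of 23 proximal genes lie right of the line, against 10 and 8 of 20 distal genes.

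Of the 8 genes of bile acid handling, 5 in set 1 and 4 in set 2 reached 10 CPM in enterocyte-gated cells. Abcc2, a conjugate export pump gene, was at 362 and 546 CPM, Abcc3 at 33.9 and 47.5 CPM, Nr0b2 at 5.65 and 4.24 CPM, and the receptor gene Gpbar1 had 0 UMIs. Bile acid export genes and the receptor FXR were thus counted in the same class in which Fabp6 and Fgf15 were near or at 0.

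Genes of the neighbouring organs were low. None of 11 colon and none of 12 stomach genes reached 10 CPM in enterocyte-gated cells, and over all kept cells the highest were Fxyd4 at 3.55 and 2.15 CPM and Cldn8 at 2.97 and 2.80 CPM (colon), and Atp4a at 3.94 and 2.29 CPM and Tff1 at 3.57 and 1.96 CPM (stomach). Car1, Hoxb13, Hoxd13 and Scnn1b, colon genes, and Gkn2, Muc5ac, Atp4b and Lipf, stomach genes, had 0 UMIs over all cells. Tff1 stood at 24.9 CPM in the low-marker cells of set 1, all of it in 3 cells or fewer. Of 40 Hox genes, which mark position along the body axis, 22 in set 1 and 26 in set 2 had 0 UMIs, and the highest over all cells was Hoxa9 at 1.23 and 1.68 CPM.

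Hormone genes were read in enteroendocrine-gated cells. Of the proximal ones, Cck stood at 22842 and 54471 CPM, Gip at 11065 and 10404 CPM, Ghrl at 1229 and 4621 CPM, Sct at 704 and 1219 CPM and Gast at 144 and 35.8 CPM, with 81.8% and 65.2% of the Gast UMIs in 3 cells. Of the distal hormone genes, Gcg stood at 2805 and 8268 CPM, Pyy at 64.3 and 188 CPM, Nts at 1.48 and 15.9 CPM and Insl5, made in the colon, at 1.98 and 2.77 CPM. Over all kept cells Nts stood at 20.04 and 23.7 CPM, with 95.7% and 81.5% of its UMIs in 3 cells.

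The transcription factors were counted together under single barcodes. Free RNA or a second cell under a barcode can add to such counts, and their part was not tested. Of the 7 transcription factors, a kept cell had a UMI of a median of 5 in each set. All 7 were counted in 387 cells (16.8%) and 225 cells (12.7%), none of them in 162 (7.04%) and 48 (2.72%). Cells low in all markers made up 123 of those 162 and 28 of those 48, at median depths of 3388.5 and 26799 UMIs; the part of depth in these counts was not tested. With each cell thinned to 2000 UMIs, which left out 265 and 77 shallower cells, the share with a UMI was 7.78% and 7.18% for Gata4 (56.7% and 57.6% unthinned), 26.6% and 26.3% for Onecut2 and 3.47% and 3.45% for Pdx1.

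The genes most like each of 8 members were sought; Fabp6 had too few UMIs. They were ranked by the correlation of log2(CPM + 1) over 10 pools, which are 5 classes in 2 sets, among 7714 genes with at least 1000 UMIs. The pools share classes and depth, so these are descriptions. Cdx1 was closest to Metrn, Cinp and Utp11 (r from 0.997 to 0.998), Slc10a2 to Gpx4, Ms4a10 and Mpc1 (0.985 to 0.991), Onecut2 to Zfp148, Birc6 and 4931406P16Rik (0.984 to 0.988), and Pdx1 to Ctnnbl1, Sdf2l1 and Dedd (0.956 to 0.959). Lower values were found for Cdx2 with Mfsd4a, Prcp and Zfp825 (0.929 to 0.966), Gata6 with Calm3, Itga6 and Ap3b1 (0.939 to 0.948), Hnf4a with Zfp961, Smim8 and Vkorc1l1 (0.939 to 0.942) and Gata4 with Inpp5b, Ppox and Slc25a39 (0.854 to 0.909). Between members, r was 0.73 for Slc10a2 with Hnf4a, -0.89 for Slc10a2 with Pdx1 and -0.85 for Hnf4a with Pdx1. It was 0.72 for Gata6 with Onecut2, -0.71 for Cdx1 with Gata6, 0.61 for Cdx1 with Cdx2 and 0.28 for Gata4 with Slc10a2.

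Gata6, Pdx1 and Hnf4a each overlap a gene on the other strand. Whether the counting used strand is not given in the sources used here, so the part of these overlaps in the counts was not tested. The partners had rows of their own at 6.74 CPM (1010001N08Rik, beside Gata6), 6.71 CPM (Plut, beside Pdx1, with the class values above) and 0.479 CPM (Hnf4aos, beside Hnf4a) over both sets. Pdx1 and Cdx2 are neighbours in the annotation, with Gm27033 between them at 3.56 CPM, and Gsx1, the remaining gene of their cluster, had 0 UMIs.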

How the data were processed

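The deposited matrix holds counts of UMIs per gene and barcode, whole numbers without normalization. The submitters' processing notes name bcl2fastq 2.20.0, Cell Ranger 3.1.0 and STAR 2.7.3a; their roles, the genome build and the annotation are not given in the sources used here. The 21806 barcodes include 29 sequences with both suffixes, none among the kept cells. With Python 3.11.15, UMIs were summed per class and set, divided by total UMIs (CPM), and compared as log2 ratios of CPM + 1. A gene was called at 1.5-fold with at least 10 UMIs, in both sets for class comparisons. A count of 0 is limited by 3 counts. Gates used marker UMIs per 10000 (20 enteroendocrine, 40 enterocyte, 40 goblet or Paneth, 5 revival-like, 5 tuft, then 5 stem and 10 proliferating) and at least 3 to 5 detected markers. Their thresholds were set after marker levels had been seen. No doublet caller was run: 82 cells passing several gates were set aside, and an alternative leaves out the 5% deepest cells. Named were all members; of each list, genes of at least 50 CPM in a class, at most 6, and genes at 0 by count; and the 3 genes most like each member of at least 100 UMIs, which leaves out Fabp6. Other genes were named after their values were seen. The members and lists were chosen with earlier results of these data known. Ratios, intervals and thinning were tested on simulated counts. No column of per-sample values was left unused.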

Additional observations from a re-analysis of the deposited data

Results flagged for a closer look

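The 10064 and 7676 barcodes left out by the filter on genes, UMIs and mitochondrial share enter no main comparison (an alternative without the mitochondrial limit takes some in), yet 8 of the 9 genes were counted in them above the level that 3 counts would give. Gata4 stood at 21.3 CPM in set 1 and 25.5 CPM in set 2, Gata6 at 44.3 and 45.5 CPM, Onecut2 at 92.4 and 114 CPM, Pdx1 at 7.2 and 8.1 CPM, Cdx1 at 37.8 and 41.4 CPM, Cdx2 at 36.8 and 27.9 CPM, Hnf4a at 49.6 and 59.5 CPM and Slc10a2 at 1.19 and 2.83 CPM. Fabp6 had 1 UMI in set 1 and 0 in set 2.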

How the results depend on the processing

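No paired analysis was possible because both samples hold the same matrix and each barcode set is a single pool. No replicate could be left out for the same reason. Slc10a2 was the 1 member past 1.5-fold between the sets under 7 of 8 alternatives, with log2 ratios from 0.65 to 1.21; with a pseudocount of 10 CPM the count was 0 and the ratio 0.22. The number of proximal genes at 10 CPM in enterocyte-gated cells ran from 18 to 21 and that of distal genes from 6 to 12 over levels of 5 and 50 CPM, no mitochondrial limit, and gates at 2 or 0.5 times the marker level, the last chosen after seeing the data. Colon genes stayed at 0 throughout; stomach genes were 0 except 1 in set 1 with the gates at 0.5 times the level; the cause was not tested. Members with a thinned share of at least 10% numbered 5 in each set; without the mitochondrial limit they were 3 in set 1 and 4 in set 2. Of 90 class levels, 48 moved beyond their counting interval when mitochondrial genes were left out of the total, which raises every CPM, 29 with the gates at 2 times the marker level, 26 without the mitochondrial limit, 20 with that limit at 10%, 15 with CPM averaged over cells, 3 without the 5% deepest cells and 0 with a higher UMI minimum. Of 8 set ratios, 5 moved without the mitochondrial limit, 2 with it at 10% and 3 with CPM averaged over cells. Depth limits the low genes most: Fabp6 and Onecut3 at 0 UMIs mean no more than under the stated limit.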
